A study of Monopterus albus with 2 samples.

Results

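The peaks described here are those called for ubiquitinated histone H2b (H2bK120ub) on scaffold385.1 of the swamp eel *Monopterus albus*, outside the sex-determining gene *dmrt1*. All peaks of this scaffold in the testis and ovary lists were taken, and those that overlapped the promoter and gene span of *dmrt1*, positions 114095 to 141887, were left out. This gave 129 testis peaks and 158 ovary peaks, or 287 of the 583021 peaks of both lists. The peaks left out, which touch this 27793 bp locus, numbered 19 in testis and 11 in ovary. Chromatin from an untreated adult testis sample and an untreated adult ovary sample was immunoprecipitated with an antibody to H2b ubiquitinated at lysine 120, and the sources used here do not say how many fish gave each sample. With 1 sample per tissue there is no replicate error and no test, so each difference is one between 2 lists of peaks. A peak is a stretch called as enriched, the lists hold no read counts, and the depth of either library is unknown.

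The swamp eel begins life as a female and turns into a male, and its gonad changes from ovary to testis on the way. Ubiquitin on H2b is attached by a ligase that travels with elongating RNA polymerase, so in vertebrate cells this mark is known mainly from the bodies of transcribed genes. *dmrt1* encodes a DM-domain transcription factor needed for testis differentiation in many vertebrates. In the order of the RefSeq annotation (M_albus_1.0), *dmrt1* is preceded by *kank1a*, a regulator of the actin cytoskeleton by its family, and by *cfap157*, which belongs to the cilia- and flagella-associated proteins. It is followed by *dmrt3a* and *dmrt2a*, further members of the DM-domain family, then by the lncRNA LOC109951427 and by *smarca2*, an ATPase of the SWI/SNF chromatin remodeling complex. These names rest on order alone, and no neighbor was placed on the scaffold. The placement of *dmrt1* itself on scaffold385.1 came from an earlier match of these peaks with the published drawing of the locus and was not tested again here. Every distance below depends on it, and so does every contrast between the locus and its flanks, since the testis peaks of the locus were part of what placed it.

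With all peaks of both lists counted, the flanks as a whole did not carry a testis excess of the size found at *dmrt1*. At the locus, testis peaks covered 43.2% of the bases and ovary peaks 8.6%, a difference of 34.6 percentage points. In the 114094 bp before the locus, on the promoter side, testis peaks covered 31.8% and ovary peaks 33.8%, a difference of -2.0 points. In the 153680 bp after the locus, up to the last peak of either list, testis peaks covered 26.9% and ovary peaks 20.2%, so testis was 6.6 points higher and its covered bases were 1.33 times those of ovary. Both flanks together had shares of 29.0% in testis and 26.0% in ovary. For comparison with the locus, the 22906 windows of its length on all scaffolds with peaks in both lists had a median difference of 0.99 points. Their 5th percentile was -12.1 and their 95th 15.2. The flanks are longer than these windows. Over the 435 whole scaffolds of more than 200000 bp with peaks in both lists, the 5th percentile of the difference was -3.59 and the 95th 6.63. The whole of scaffold385.1, with the locus, had 6.49 points.

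**Figure D1:**
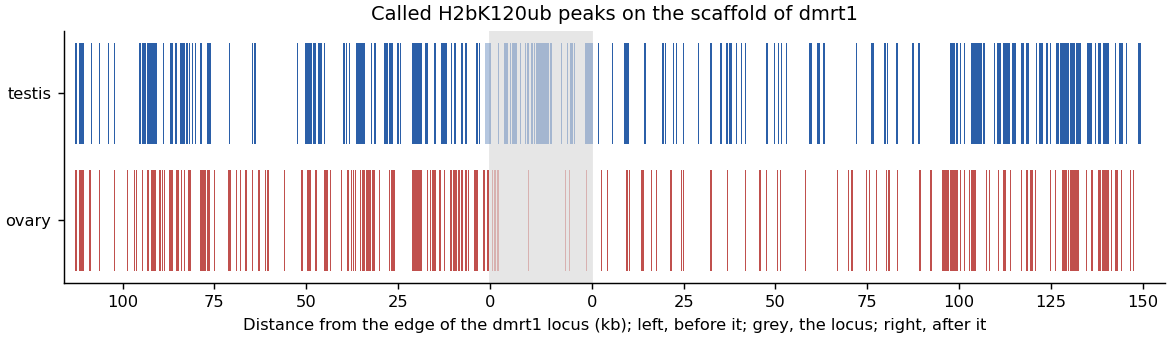
Peaks of testis (upper row, blue) and ovary (lower row, red) by distance in kb from the edges of the *dmrt1* locus, which is shaded gray, with the peaks left out drawn in paler color. In the 95 kb after the locus lie 40 testis and 39 ovary peaks, and in the next 50 kb 28 testis and 31 ovary peaks.

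The difference after the locus depended on which peaks were used. With the 50% of each list that scored highest it turned to -2.76 points, and by peak midpoints it was -0.032 per kb, since 71 testis peaks and 76 ovary peaks lay there. The testis excess after the locus was thus one of peak length, not of peak number. The difference at the locus itself was not computed with the highest-scoring peaks, so its contrast with the flanks was not tested for them. The 34.6 points at the locus rested mainly on testis peaks that scored below the median of their list. At the locus, the 4 testis peaks of at least 1000 bp, of 1624, 1560, 3475 and 2185 bp, all scored below the median of the testis list. Their scores were 0.712, 0.858, 0.771 and 0.743. The share of testis peaks of this length below the median was not computed for the whole list. Of the peaks at the locus, 7 of 19 in testis and 4 of 11 in ovary scored above the median of their list. About 50% of each list does so by definition. In testis these were peaks of 74, 993, 65, 284, 92, 709 and 260 bp, and in ovary of 316, 498, 59 and 176 bp. The median score at the locus was 0.867 in testis, against 0.966 in the whole testis list, and 0.964 in ovary, against 0.971.

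The peaks on either side of the edges were examined next, as a description, because the locus was not placed independently of these peaks. At the 3′ edge, peaks lay over 43.6% of the last 5 kb within the locus in testis and 6.0% in ovary, a difference of 37.6 points. This value too rests on 1 testis peak, which runs over the edge and holds 1920 of the 2180 testis bases. Its score of 0.743 was below the median of the testis list. Outside, the first 5 kb had shares of 5.9% in testis and 9.3% in ovary, a difference of -3.4 points. The testis peak that runs over this edge, from 139968 to 142152, ended 265 bp outside the locus, and with this part counted the 5 kb had 11.2% in testis and 9.3% in ovary. Closer to the edge the testis excess was larger with this part counted. The nearest 1 kb had 26.5% in testis and 0% in ovary, and the nearest 2 kb 27.9% and 0%. The nearest peak wholly outside was a testis peak of 293 bp from 143568 to 143860, where no ovary peak was called. The nearest ovary peak lay from 144297 to 144560, 2410 bp from the edge, and overlapped no testis peak.

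At the promoter edge the difference was small on the inner side already. The first 5 kb within the locus, which hold the promoter of 2000 bp and the start of the gene, had a share of 25.1% in testis and 21.4% in ovary. In the 5 kb outside, testis peaks covered 17.9% and ovary peaks 42.5%, a difference of -24.7 points. This value rests on 1 testis peak of 1624 bp, from 112659 to 114282, which was left out because 188 bp of it lie in the promoter. With its other 1436 bp counted, the shares of the same 5 kb were 46.6% in testis and 42.5% in ovary, and the difference turned to 4.1 points. Counted likewise, the nearest 1 kb had 100% in testis and 69.9% in ovary, a difference of 30.1 points. The nearest 2 kb had 71.8% and 51.4%, a difference of 20.4 points. The ovary peak nearest to this edge, from 113278 to 113976 and 119 bp from the locus, lay wholly within that testis peak. The nearest testis peak that did not touch the locus was one of 135 bp from 111205 to 111339, and no ovary peak overlapped it.

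Longer stretches were then counted from each edge. Before the locus, the nearest 10 kb had 30.2% in testis and 49.4% in ovary, or 44.6% in testis once the peak over the edge was counted, and with the 50% of each list that scored highest the difference turned to 7.65 points. The nearest 20 kb had 40.7% in testis and 47.3% in ovary, or 47.9% in testis with that peak. The nearest 50 kb had 41.7% in testis and 41.0% in ovary, or 44.6% in testis with that peak. The difference at this distance was thus 0.68 points without that peak and 3.55 with it. After the locus, the nearest 10 kb had 19.0% in testis and 10.8% in ovary, a difference of 8.2 points that became 3.5 with the 50% of each list that scored highest. The nearest 50 kb had 17.4% in testis and 10.8% in ovary there, a difference of 6.5 points. Within 50 kb of the locus, peaks of both tissues thus covered less after the gene than before it. Counted from the edge, the testis share after the locus was above that of ovary at each distance computed from 10 to 100 kb. Single windows of 10 kb on this side went the other way from 40 to 50 kb, by -1.22 points, from 80 to 90 kb, by -1.13 points, and from 90 to 100 kb, with 18.8% in testis and 44.9% in ovary.

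**Figure D2:**
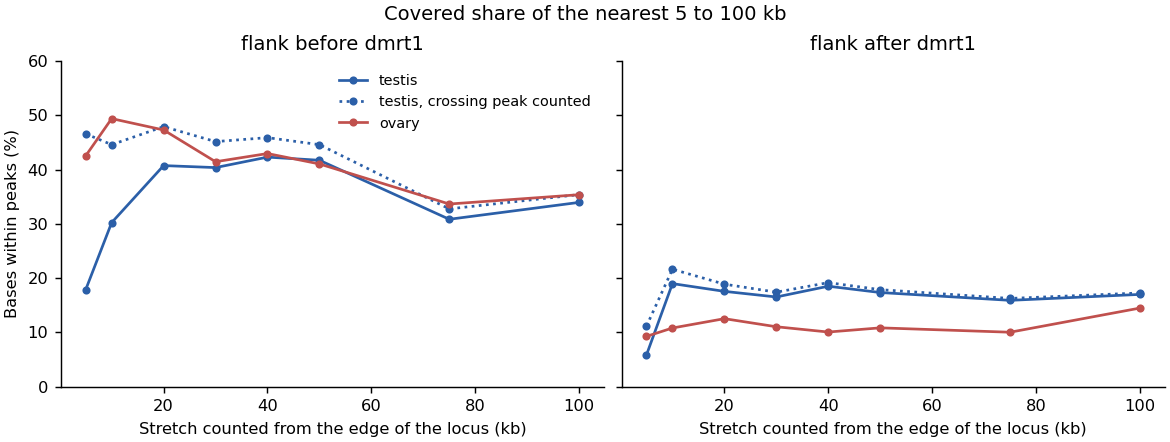
Percentage of bases within peaks in the nearest 5 to 100 kb before (left) and after (right) the *dmrt1* locus, for testis (blue) and ovary (red); dotted lines count the outer part of the testis peaks that cross an edge. At 50 kb the shares are 41.7% in testis and 41.0% in ovary before the locus, and 17.4% and 10.8% after it.

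Windows of 5 kb counted outward from each edge were then compared, and testis or ovary was called higher where the covered shares differed by at least 20 points. Of the 52 complete windows, testis was higher in 8 and ovary in 3. These were 15.4% and 5.8% of the windows of the flanks, against 9.07% and 7.16% of the 128886 windows on all scaffolds with peaks in both lists. When the locus was taken as the gene span without its promoter, which shifts the windows before it, testis was higher in 5 and ovary in 2. With 10 kb windows testis was higher in 2 of 26 and ovary in 1, against 5.48% and 3.77% of such windows on all scaffolds. When a share of at least 10% and at least 2 times that of the other tissue was required in 5 kb windows, testis was higher in 8 of 52 and ovary in 6, against 14.3% and 9.6%. Of the windows called for testis, 3 of 22 lay before the locus and 5 of 30 after it. With the 50% of each list that scored highest, testis was higher by 20 points in 4 of the 52 windows and ovary in 4, against 9.97% and 8.85% of the windows on all scaffolds with the same peaks. Without a threshold, testis had the larger share in 8 of 22 windows before the locus and in 20 of 30 after it, and ovary in 14 and 10. Of the windows on all scaffolds, 50.6% had a larger testis share and 41.3% a larger ovary share. The remaining 8.09% had equal shares, which no window of the flanks had.

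**Figure D3:**
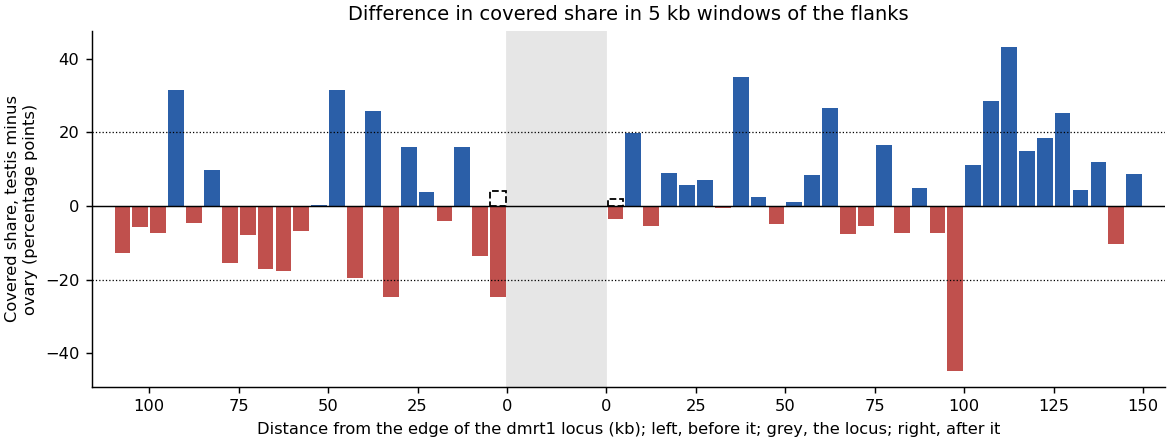
Covered share in testis minus that in ovary, in percentage points, for 5 kb windows outward from the *dmrt1* locus (gray); blue bars are higher in testis, red bars higher in ovary, dashed outlines count the outer part of peaks that cross the edge, and dotted lines mark the 20 points used to call a window. The highest window, 43.1 points, begins 110 kb after the locus, and the lowest, -44.7 points, begins 95 kb after it.

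At 20 points, no window within 35 kb of the locus was called higher in testis on either side. The window from 5 to 10 kb after the locus, positions 146888 to 151887, came just under the threshold, with 32.1% in testis and 12.4% in ovary, and was called when 2 times the share of the other tissue was required instead. Before the locus, the first called window lay 35 to 40 kb away, from 74095 to 79094, with 55.6% in testis and 29.8% in ovary. The next one, 45 to 50 kb away from 64095 to 69094, had 71.3% in testis and 39.8% in ovary. After the locus, the first was also 35 to 40 kb away, from 176888 to 181887, with 38.0% in testis and 3.0% in ovary. It holds a testis peak of 1026 bp, from 179147 to 180172, that no ovary peak overlapped. The window from 60 to 65 kb had 27.8% in testis and 1.2% in ovary.

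Windows with an excess lay next to windows without one, or with the reverse. Ovary was called higher in the window nearest to the promoter edge, which changed with the peak over the edge, and 30 to 35 kb before the locus, where testis peaks covered 40.6% and ovary peaks 65.2%. This last window adjoins the first one called for testis on this side, and ovary holds there a peak of 1584 bp, from 80237 to 81820, of which 14 bp lay within a testis peak. The third was 95 to 100 kb after the locus, from 236888 to 241887, with 37.7% in testis and 82.3% in ovary. In it ovary had peaks of 1733 bp and 2384 bp, the first of which had no counterpart in testis.

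The longest run of windows with a larger testis share lay far from *dmrt1*, with 8 windows in a row from 100 to 140 kb after it. Within it, from 105 to 130 kb after the locus, positions 246888 to 271887, testis peaks covered 51.4% and ovary peaks 25.3%, a difference of 26.1 points and 2.03 times the bases. The 5 windows in this stretch had differences from 14.9 to 43.1 points. These bounds were chosen after the values had been seen, and runs of windows were not measured on other scaffolds. With windows as long as the locus, counted outward from its edges, the one that begins 111 kb after it had 54.7% in testis and 33.7% in ovary, a difference of 21.1 points. It was the only one of 9 with testis at least 20 points higher, and none had ovary higher by as much, against 2.48% and 1.03% of such windows on all scaffolds. The window of that length nearest to the locus had a difference of -3.6 points before it, or 1.6 with the peak over the edge, and 5.0 points after it. Of the 13 testis peaks centered in the stretch from 105 to 130 kb, 9 had scores below the median of their list. Of the 15 ovary peaks centered there, 7 did. The 3 testis peaks of at least 1000 bp centered there, of 2109, 1002 and 2387 bp, all scored below the testis median. Their scores were 0.756, 0.821 and 0.728. The 1 ovary peak of this length centered there, of 1585 bp, scored 1.15, above the ovary median. The difference in this stretch was not computed with the highest-scoring peaks of each list. The testis excess there was thus shown with all peaks only.

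The correlation of the testis and ovary shares was lower across the flanks than across all scaffolds. It was 0.63 by Pearson and 0.65 by Spearman over the 52 windows, against 0.76 and 0.77 over all 128886 windows. These sets of windows were not matched for their range of shares. Neighboring windows share peaks and all windows come from the same 2 libraries, so these correlations are descriptions. The densest stretch of both tissues after the locus was the one from 95 to 145 kb, with 50.4% in testis and 40.1% in ovary. The 95 kb between it and the locus had 15.9% in testis and 10.9% in ovary. Before the locus, testis peaks were sparse from 50 to 75 kb away, where they covered 9.1% and ovary peaks 18.9%. The longest run of windows with a larger ovary share, 5 in a row, lay from 55 to 80 kb away on this side. Between 50 and 75 kb away lies also the longest stretch of the flanks without a testis peak, 11192 bp from 50331 to 61522. In it 6 ovary peaks covered 1427 bp. The longest one without an ovary peak ran over 5240 bp after the locus, from 166892 to 172131, where 2 testis peaks, the first of them only in part, covered 349 bp. Runs of windows and stretches without a peak were not measured on other scaffolds.

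Counting any overlap of 1 bp or more, 84 of the 129 testis peaks, or 65.1%, met a peak of ovary, against 59.3% of the whole testis list. Likewise 96 of the 158 ovary peaks, or 60.8%, met a peak of testis, and 60.8% of the whole ovary list did. With overlap of 50% of both lengths the share of testis peaks was 24.8%, against 21.5% of the whole testis list. With the 50% of each list that scored highest it was 42.6%, against 31.2%. By overlap of 1 bp or more the sides differed. Before the locus 81.0% of testis peaks and 68.3% of ovary peaks overlapped one of the other tissue, and after it 52.1% and 52.6%. Both lists also covered more before the locus, ovary with 33.8% against 20.2% and testis with 31.8% against 26.9%. With overlap of 50% of both lengths the sides were closer. The shares were then 27.6% of testis and 19.5% of ovary peaks before the locus, and 22.5% and 21.1% after it. Of the bases that either list covered, both shared 35.5% before the locus and 28.4% after it, or 31.9% on both flanks, against 35.5% over the whole series.

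Peaks of the flanks were longer in testis than in ovary, as they were at *dmrt1* and in the whole lists. The median length was 399 bp in testis against 292.5 bp in ovary on both flanks together. It was 337 bp in testis against 176 bp in ovary at the locus, and 340 bp against 308 bp over all scaffolds. Before the locus the medians were 395.5 bp in testis against 315.5 bp in ovary, and after it 413 bp against 257.5 bp. Peaks of at least 1000 bp numbered 24 of 129 in testis and 17 of 158 in ovary, or 18.6% and 10.8%, against 15.1% and 13.1% of the whole lists. After the locus there were 12 of them in testis and 6 in ovary, and before it 12 and 11. The difference in median length was 20.5 bp with the 50% of each list that scored highest, in place of 106.5 bp. The lists also differ in their shortest peak, 65 bp in testis and 59 bp in ovary. With the same shortest length (65 bp) and smallest gap (261 bp) in both lists the difference was 70.0 bp.

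**Figure D4:**
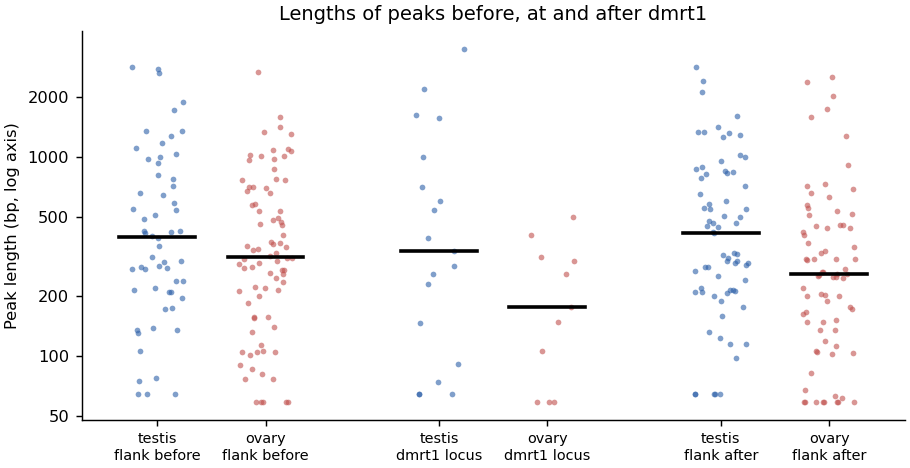
Length in bp of each peak, on a log axis, for testis (blue) and ovary (red) before, at and after the *dmrt1* locus; black bars are medians. The medians after the locus are 413 bp in testis and 257.5 bp in ovary.

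Of the 24 testis peaks of at least 1000 bp, 10 overlapped more than 1 ovary peak and 3 overlapped none, against 44.6% and 7.42% of such peaks in the whole testis list. Of the 17 such ovary peaks, 3 overlapped more than 1 testis peak and 1 overlapped none, against 37.7% and 7.09% of those in the whole ovary list. Ovary peaks covered 45.3% of a long testis peak in the median, and testis peaks covered 79.0% of a long ovary peak. These medians were not computed for the whole lists. With peaks of all lengths, the whole lists shared 50.9% of the testis bases and 54.0% of the ovary bases. The longest testis peak of the flanks, 2833 bp from 245221 to 248053, was covered to 45.0% by an ovary peak of 1277 bp that began 2 bp before it. The second, 2830 bp from 20703 to 23532, held ovary peaks of 455 bp and 1303 bp. The third, 2741 bp from 93001 to 95741, lay 18.4 kb before the locus and had a near copy in ovary, the longest ovary peak of the flanks, with 2652 bp from 92960 to 95611. The next ovary peaks by length, of 2515 bp from 272053 to 274567 and 2384 bp from 239348 to 241731, overlapped 2 testis peaks each.

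The scores set the far end of the scaffold apart in both tissues. The deposited score has no stated meaning, so it was read only within a list. In the 39094 bp that lie more than 75 kb before the locus, up to the start of the scaffold, 12 of 21 testis peaks and 19 of 27 ovary peaks scored above the 95th percentile of their list, a level that 5.0% of each list passes by definition. The median score there was 2.59 in testis and 3.28 in ovary, against 0.966 and 0.971 in the whole lists. Covered shares of this stretch were nearly equal, with 33.6% in testis and 34.0% in ovary. An ovary peak lay in part or whole over 18 of its 21 testis peaks. The same held for 24 of 29 in the nearest 50 kb before the locus and 59.3% of the whole testis list. Over all scaffolds, 0.302% of windows of this length held at least 10 peaks above the 95th percentile in both lists. This count was chosen after the values of this stretch had been seen.

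**Figure D5:**
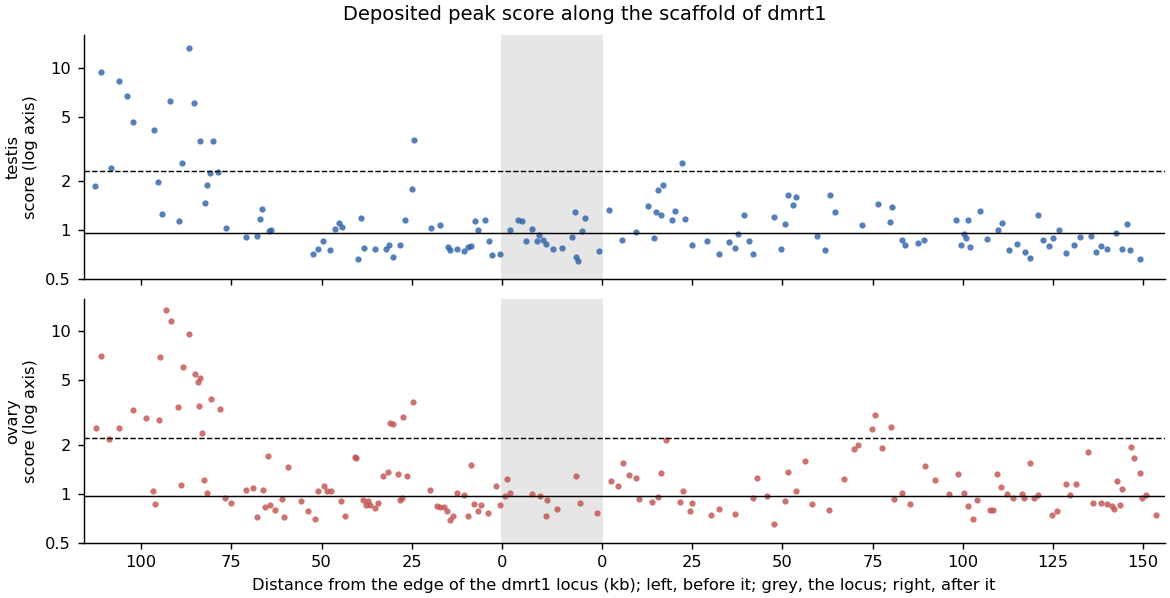
Deposited score of each peak on the scaffold, on a log axis, for testis (top) and ovary (bottom), by distance from the *dmrt1* locus (gray); the solid line is the median and the dashed line the 95th percentile of each list. Above the dashed line lie 12 of 21 testis peaks and 19 of 27 ovary peaks more than 75 kb before the locus, and none at the locus.

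The peaks with the highest scores all lay in that stretch. In testis they were a peak of 981 bp from 26956 to 27936 with a score of 13.3, one of 1347 bp from 2236 to 3582 with 9.44 and one of 302 bp from 7710 to 8011 with 8.27. Ovary peaks covered 79.5%, 99.2% and 96.7% of them. In ovary they were peaks of 455 bp from 20749 to 21203 and 1303 bp from 21805 to 23107, with scores of 13.6 and 11.6, both wholly within 1 testis peak, and one of 1011 bp from 26725 to 27735 with 9.66. From 50 to 75 kb before the locus, 0 of 8 testis peaks and 0 of 15 ovary peaks passed the 95th percentile. In the nearest 50 kb, 1 of 29 testis peaks and 4 of 40 ovary peaks did, against 5.0% of each list, and after the locus 1 of 71 testis peaks and 3 of 76 ovary peaks did.

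The surroundings of *dmrt1* were also set beside those of other windows with a testis excess. On other scaffolds, 129 windows as long as the locus had a testis share at least 30 points above that of ovary, and 126 of them had 5 kb on both sides. In these the adjoining 5 kb had a median difference of 21.5 points, with quartiles of 8.4 and 38.7. An excess of at least 20 points lay on both sides of 38 windows, on 1 side of 57 and on neither side of 31. By its adjoining 5 kb *dmrt1*, with 4.1 points before it and 1.9 after it when peaks over the edges are counted, would fall among the last. In its nearest 2 kb the differences were 20.4 points before it and 27.9 after it, a distance not computed for the other windows. These windows were tiled from the start of each scaffold and not placed at the ends of genes, so an excess can run over their edges, and this is a description without a test.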

How the data were processed

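Cross-linked gonads were digested and sonicated, chromatin was pulled down on beads with the antibody or IgG, and quality-filtered reads were aligned to an NCBI genome before peaks were called, as the study's methods state. The submitters' processing notes name MACS 1.4.2. The sources used here name no aligner, threshold, control or genome build. The authors deposited 1 peak list per sample, with a score for each peak whose meaning no header states.

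Covered share is the percentage of bases within peaks. Positions are counted from 1. The last peak of either list was used as the end of the scaffold. Background windows were laid end to end on the 1780 scaffolds that both lists share, and incomplete windows were left out. The positions of the locus were taken as given. The annotation was taken to hold the same span for *dmrt1* with a promoter of 2000 bp, which was not checked against a named build. Beyond this it served for names and order only, since no build is named. The members, thresholds and named peaks (nearest to the locus on each side, 3 longest, 3 highest scores in each list, longest stretches without a peak) were chosen with earlier results of these data known. Further peaks and windows are named because they passed a threshold, and the stretches by distance were chosen after their values had been seen. Alternatives changed the peaks used, the peaks over the edges, the locus, the windows, the measure and the overlap. Python 3.11.15, numpy 2.4.6, pandas 2.3.3 and matplotlib 3.10.9 were used. Covered bases were tested on 1000 simulated intervals, with 0 differences from a count base by base.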

Additional observations from a re-analysis of the deposited data

How the results depend on the processing

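No paired analysis was possible because each tissue had a single sample. The cause of the shifts below was not tested, except where a setting itself leaves peaks out or in. Values that stayed within a factor of 1.5 are not listed.

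The difference before the locus, -2.0 points, kept its sign in each setting run, with -0.70 when peaks under 300 bp were left out, -3.07 when both lists were cut to equal covered bases, -0.74 with the outer part of peaks over the edge counted, -1.06 for the gene span without promoter and -3.33 with the same shortest length (65 bp) and smallest gap (261 bp) in both lists, a setting added after the data had been seen. By midpoints it was -0.21 peaks per kb. The difference after the locus, 6.61 points, turned to -2.76 with the 50% of peaks that scored highest and to -0.032 per kb by midpoints. That of the nearest 10 kb before the locus, -19.2, became 7.65 with the highest scores, -4.8 with peaks over the edge and -3.17 without promoter. That of the nearest 10 kb after it, 8.18, became 3.5 with the highest scores.

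The 8 windows higher in testis became 4 with the highest scores, 5 without promoter and 2 at 10 kb, where 5.48% of all windows were called. The 3 higher in ovary became 1 at 10 kb (3.77% of all) and 6 when 2 times the share of the other tissue was required. The difference in median length, 106.5 bp, became 20.5 with the highest scores, 180.0 without peaks under 300 bp and 70.0 with equal shortest length and gap. The 65.1% of testis peaks overlapping ovary became 42.6% with the highest scores and 24.8% with overlap of 50% of both lengths. Depth is unknown, and where no peak was called there may have been too few reads for one.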
